A study of Mus musculus with 24 samples.

Results

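The aminoacyl-tRNA synthetases are the enzymes that join each amino acid to its transfer RNA. The genes described here are 36 members named by symbol, 20 of the cytosol and 16 of the mitochondrion (symbols ending in 2), out of 24421 genes in the table. They were chosen by name as a family, and all 36 passed the filter on low counts. Lars2, the mitochondrial leucine enzyme, is treated apart because it was the gene with the most counts in 13 of 24 libraries. The other 35 are counted together.

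Bulk RNA was sequenced from B cells that were sorted from mouse bone marrow as 3 populations, pro-B together with pre-B cells (labelled proBpreB), immature B cells and mature B cells. 4 mice were VHL flox/flox and 4 were VHL flox/WT, and every mouse gave 1 library of each population, so there were 6 groups of 4 libraries. All mice were MB1 Cre +/WT, which places the recombinase under a B lineage gene, so the flox/WT controls carried the recombinase and 1 floxed allele as well. Vhl encodes the part of a ubiquitin ligase that marks hypoxia-inducible factors (HIF) for destruction. The sources used here do not give the ages of the mice, the surface markers of the sorts or the positions of the lox sites.

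As background, cells keep separate enzyme sets for the cytosol and for the mitochondrion, although Gars and Kars each serve both compartments from a single gene. Several cytosolic enzymes sit with scaffold proteins in a multisynthetase complex (here Dars, Eprs, Iars, Kars, Lars, Mars, Qars and Rars), and Farsa and Farsb encode the subunits of a single enzyme. Many cytosolic synthetase genes are known targets of ATF4, the transcription factor of the amino acid response. Growing B cell precursors have a high demand for protein synthesis, which falls when they stop dividing.

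Promoter windows from RefSeq on GRCm38.p6, reaching from 250 bases before to 50 after the start site, were matched for 26 of the 36 members. Those below belong to Dars and Nars2, which rose with Vhl loss, to Aars and Iars, which carry the element that ATF4 binds, and to Eprs, whose genotype effect differed between populations. All are written 5′ to 3′ on the gene's strand. Capitals mark matches on either strand to TGATGNAA (the ATF4 element), to ACGTG and GCGTG (the cores of HIF sites) and to CACGTG (the E-box bound by MYC), which itself holds ACGTG on both strands.
Dars, chr1:128417367-128417666, minus strand: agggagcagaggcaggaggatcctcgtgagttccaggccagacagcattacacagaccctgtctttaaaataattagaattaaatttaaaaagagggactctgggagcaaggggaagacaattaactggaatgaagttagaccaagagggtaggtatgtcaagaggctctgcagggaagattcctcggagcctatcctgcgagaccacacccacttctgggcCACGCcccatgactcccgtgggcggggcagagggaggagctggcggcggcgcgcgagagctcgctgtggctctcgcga
Nars2, chr7:96951277-96951576, plus strand: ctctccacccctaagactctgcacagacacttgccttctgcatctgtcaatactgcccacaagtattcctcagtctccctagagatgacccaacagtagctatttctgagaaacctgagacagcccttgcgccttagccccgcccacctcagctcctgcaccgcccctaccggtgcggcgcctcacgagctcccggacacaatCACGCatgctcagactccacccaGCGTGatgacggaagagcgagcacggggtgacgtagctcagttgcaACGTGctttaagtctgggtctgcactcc
Aars, chr8:111033592-111033891, plus strand: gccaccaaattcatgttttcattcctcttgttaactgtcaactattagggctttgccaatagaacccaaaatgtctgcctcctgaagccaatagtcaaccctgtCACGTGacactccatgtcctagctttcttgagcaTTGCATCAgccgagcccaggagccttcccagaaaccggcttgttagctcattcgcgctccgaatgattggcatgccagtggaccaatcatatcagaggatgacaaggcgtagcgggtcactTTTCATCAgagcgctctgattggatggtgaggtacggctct
Iars, chr13:49681880-49682179, plus strand: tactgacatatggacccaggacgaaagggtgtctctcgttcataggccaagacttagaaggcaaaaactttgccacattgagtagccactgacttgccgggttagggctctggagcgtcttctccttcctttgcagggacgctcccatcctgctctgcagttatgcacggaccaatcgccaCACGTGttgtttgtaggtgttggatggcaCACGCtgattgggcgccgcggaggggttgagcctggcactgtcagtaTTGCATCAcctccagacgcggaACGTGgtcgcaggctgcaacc
Eprs, chr1:185362794-185363093, plus strand: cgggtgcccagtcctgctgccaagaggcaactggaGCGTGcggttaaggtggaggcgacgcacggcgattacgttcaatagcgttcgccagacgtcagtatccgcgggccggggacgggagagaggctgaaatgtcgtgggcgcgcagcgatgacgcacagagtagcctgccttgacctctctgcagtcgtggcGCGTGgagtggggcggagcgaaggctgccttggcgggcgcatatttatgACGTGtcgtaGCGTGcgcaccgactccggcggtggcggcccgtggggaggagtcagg

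The ATF4 element lay in the windows of 5 of 12 cytosolic members (Aars, Gars, Iars, Tars and Yars) and of 0 of 14 mitochondrial members, against 2.49% of the 12298 windows of tested genes and 3.97% of all 32851 windows. In Aars its first base in the direction of the gene was at -112 and at 10 from the start site, and in Iars at 8. ACGTG was found in 10 of 26 members (38.5%, against 25.1% of the windows of tested genes) and GCGTG in 19 of 26 (73.1%, against 49.5%). CACGTG was found in 5 of 26 (19.2%, against 9.9%). Members were counted once per gene, and the shares beside them are of windows. Dars had a GCGTG match at -28, on the reverse strand, and no ACGTG. A match describes these letters and is not a measured binding site.

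Vhl itself was lower in flox/flox libraries of every population. It measured 7.97, 15.1, 9.26 and 8.25 CPM (counts scaled by TMM to a common library size) in flox/flox proBpreB libraries, against 25.8, 24.7, 23.0 and 27.9 CPM in flox/WT. In immature cells it had 6.80, 3.07, 4.29 and 8.16 CPM in flox/flox, against 47.9, 34.2, 26.7 and 33.1 CPM in flox/WT. In mature cells the values were 8.37, 9.79, 5.39 and 6.85 CPM in flox/flox, against 30.5, 26.3, 27.4 and 32.4 CPM in flox/WT. The genotypes did not overlap in any population (two-sided exact permutation p = 0.0286 in each population, the smallest that 70 assignments allow). Of 10 HIF response genes, 9 rose in each population, with median log2 changes of 3.37, 3.32 and 3.08. Of all tested genes 3.38%, 10.2% and 9.69% rose in proBpreB, immature and mature cells. Libraries held 7850186 to 11863949 counts, and the 35 members took 0.263% to 0.362% of them. B lineage markers (Cd79a, Cd79b, Pax5, Ebf1, Cd22, Blnk) were above 0 in every group. In bulk samples, fewer cells of a type and less RNA per cell cannot be told apart.

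Per length of transcript, the RNAs of the cytosolic enzymes were the more abundant set. CPM values were divided by the length of the longest coding transcript in kilobases (CPM per kb). Levels can then be compared between genes only roughly, because the order depends on the transcript length taken. The cytosolic median per group lay between 33.8 and 40.8 CPM per kb and the mitochondrial median of 15 genes between 6.89 and 11.0 CPM per kb. Vars, the valine enzyme, was highest at a mean of 183 CPM per kb over the 6 groups (136.8 to 219 between groups), followed by Dars at 108, Farsb at 63.7 and Gars at 53.0. At the low end stood Wars2 at 2.45 and Mars2 at 2.02 CPM per kb. Mars2 had the longest transcript of the members, 11294 bases. Its group means of 17.3 to 28.8 CPM were above those of Wars2, 7.95 to 13.9 CPM. The 4 mitochondrial genes Rars2 (19.7), Hars2, Tars2 and Fars2 lay above the lowest cytosolic gene, Cars, at 13.5. From Nars to Mars the means of 6 genes fell between 40.1 and 50.9 CPM per kb, and their ranges over groups overlapped.

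**Figure D1:**
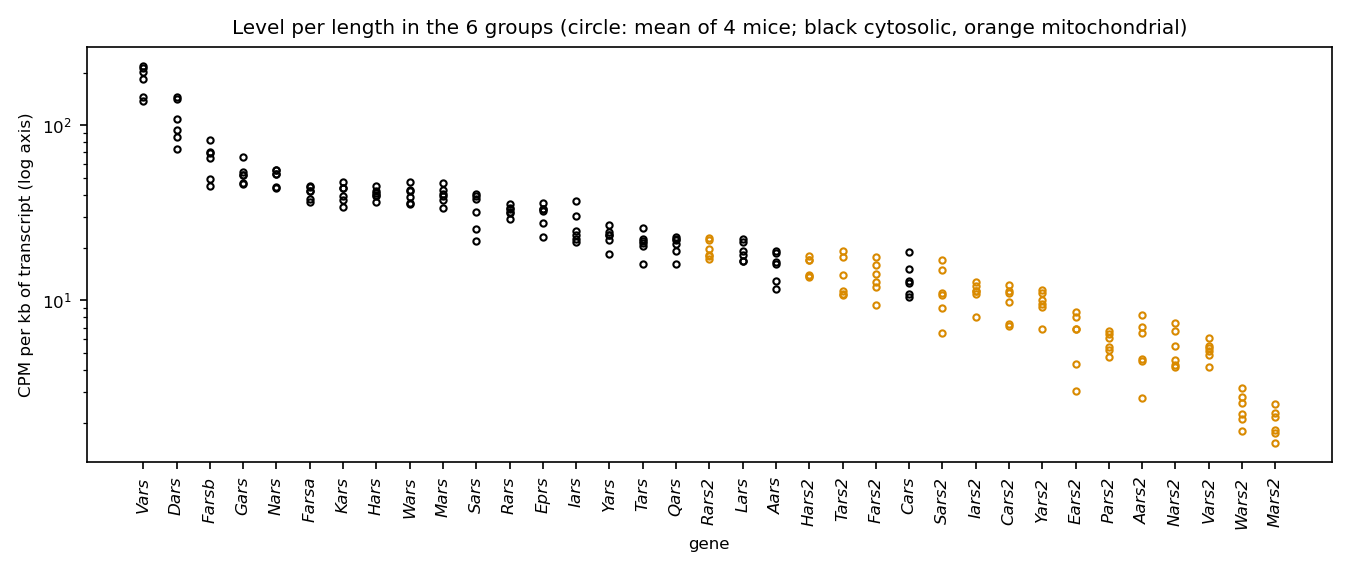
Mean level of each of the 35 synthetase genes in CPM per kb of transcript (log axis), ordered from left to right by the mean over groups. Each circle is 1 of the 6 groups (mean of 4 mice), black for cytosolic and orange for mitochondrial genes; Vars stands at the left at 183 and Mars2 at the right at 2.02 CPM per kb.

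Between genotypes, 1, 10 and 8 of the 35 synthetases were called in proBpreB, immature and mature cells, and the share called over all tested genes followed the same order. A gene is called here when its edgeR adjusted p is under 0.05. In proBpreB cells 1 of 35 members was called, Eprs, which was higher (2.86%, against 6.13% of 12850 tested genes, of which 3.38% were higher and 2.75% lower). In immature cells 3 were higher and 7 lower (28.6% called, against 20.7% of tested genes, 10.2% higher and 10.5% lower), and in mature cells 2 were higher and 6 lower (22.9%, against 16.3% of tested genes, 9.69% higher and 6.62% lower). Median log2 changes of the 35 were 0.03, -0.24 and -0.16 in proBpreB, immature and mature cells, against 0.00, 0.00 and 0.01 for all tested genes. Of the 35, 80% lay below 0 in immature cells, against 49.6% of tested genes. Among the 20 cytosolic genes 2 rose and 4 fell in immature cells (median -0.23), and among the 15 mitochondrial genes 1 rose and 3 fell (median -0.30). In mature cells the cytosolic set had 1 rise and 2 falls (median -0.11) and the mitochondrial set 1 rise and 4 falls (median -0.24). The mature count of 8 dropped to 2 without flox/flox replicate 3 and to 4 without flox/WT replicate 3 or 4, and the proBpreB count of 1 to 0 without flox/flox replicate 1, 3 or 4 and without flox/WT replicate 4.

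**Figure D2:**
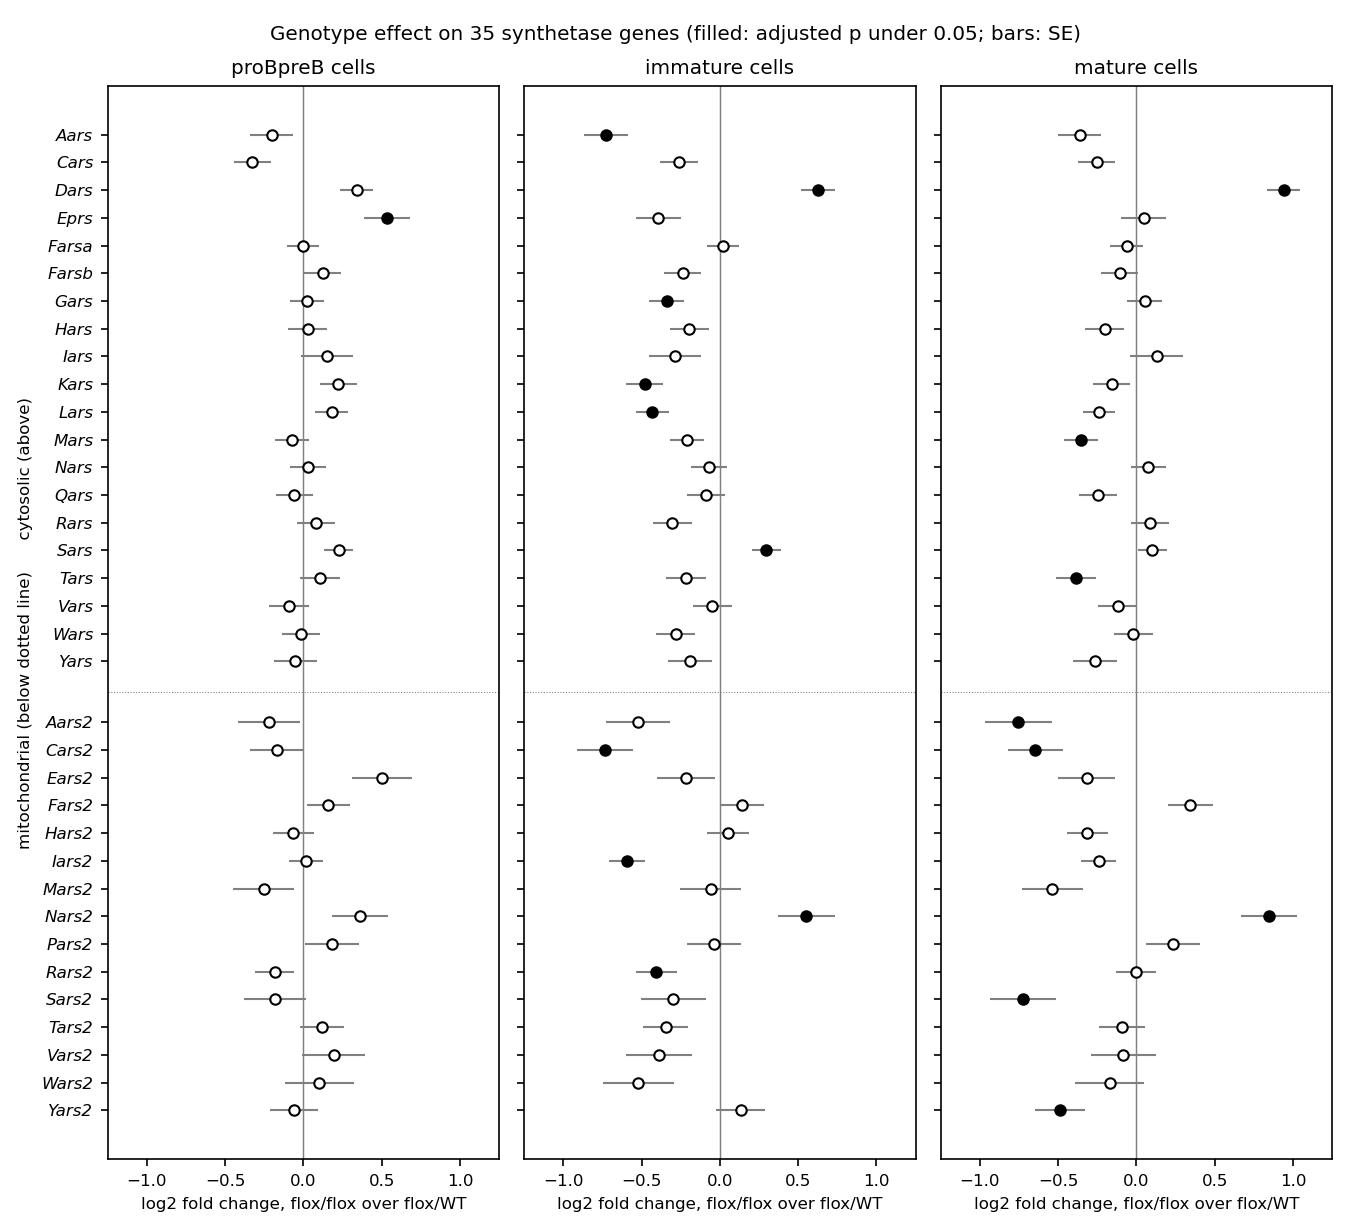
Log2 fold change of flox/flox over flox/WT for 35 synthetase genes in proBpreB, immature and mature cells (points, with SE as bars). Filled points passed the edgeR test at an adjusted p under 0.05; Dars and Nars2 lie to the right in the immature and mature panels, at 0.63 and 0.55 and at 0.94 and 0.85.

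Dars, the cytosolic aspartate enzyme and a member of the complex, had the largest rise. In mature cells it measured 289, 333, 329 and 277 CPM in flox/flox libraries, against 187, 149.8, 154 and 149 CPM in flox/WT. The lowest flox/flox library was well above the highest flox/WT library, and the flox/flox mean was 192% of the flox/WT mean (log2 change 0.94, SE 0.11, adjusted p = 1.28e-07). In immature cells it had 298, 349.8, 285 and 328 CPM in flox/flox, against 231, 195, 187 and 203 CPM in flox/WT. These groups did not overlap either (log2 change 0.63, SE 0.11, adjusted p = 5.61e-05). In proBpreB cells the values were 238, 232, 233 and 238 CPM in flox/flox, against 177, 158, 207 and 201 CPM in flox/WT. Every flox/flox library again lay higher, but the log2 change of 0.34 (SE 0.11) just missed the threshold (adjusted p = 0.0502). The immature and mature calls held under all 16 alternatives tried.

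Nars2, the mitochondrial asparagine enzyme, rose with it. In mature cells it measured 27.4, 26.4, 29.4 and 29.7 CPM in flox/flox libraries, against 15.0, 14.1, 16.7 and 17.0 CPM in flox/WT. The groups were far apart (log2 change 0.85, SE 0.18, adjusted p = 0.00137). In immature cells it had 18.0, 30.4, 19.4 and 33.1 CPM in flox/flox, against 21.6, 16.0, 15.1 and 16.2 CPM in flox/WT. Here flox/flox replicates 2 and 4 were high and the groups overlapped (log2 change 0.55, SE 0.18, adjusted p = 0.0287). That call failed without flox/flox replicate 2 (adjusted p = 0.127) or 4 (0.179) and without flox/WT replicate 2 (0.0853), 3 (0.0843) or 4 (0.0862), and in a fit of the compared groups alone (0.0699), all by edgeR. In proBpreB cells Nars2 had 16.0, 20.6, 23.1 and 22.8 CPM in flox/flox, against 14.4, 14.1, 20.2 and 15.6 CPM in flox/WT (log2 change 0.36, adjusted p = 0.275). Nars, the cytosolic asparagine enzyme, had log2 changes of 0.03, -0.07 and 0.08 in the 3 populations, none of them called.

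**Figure D3:**
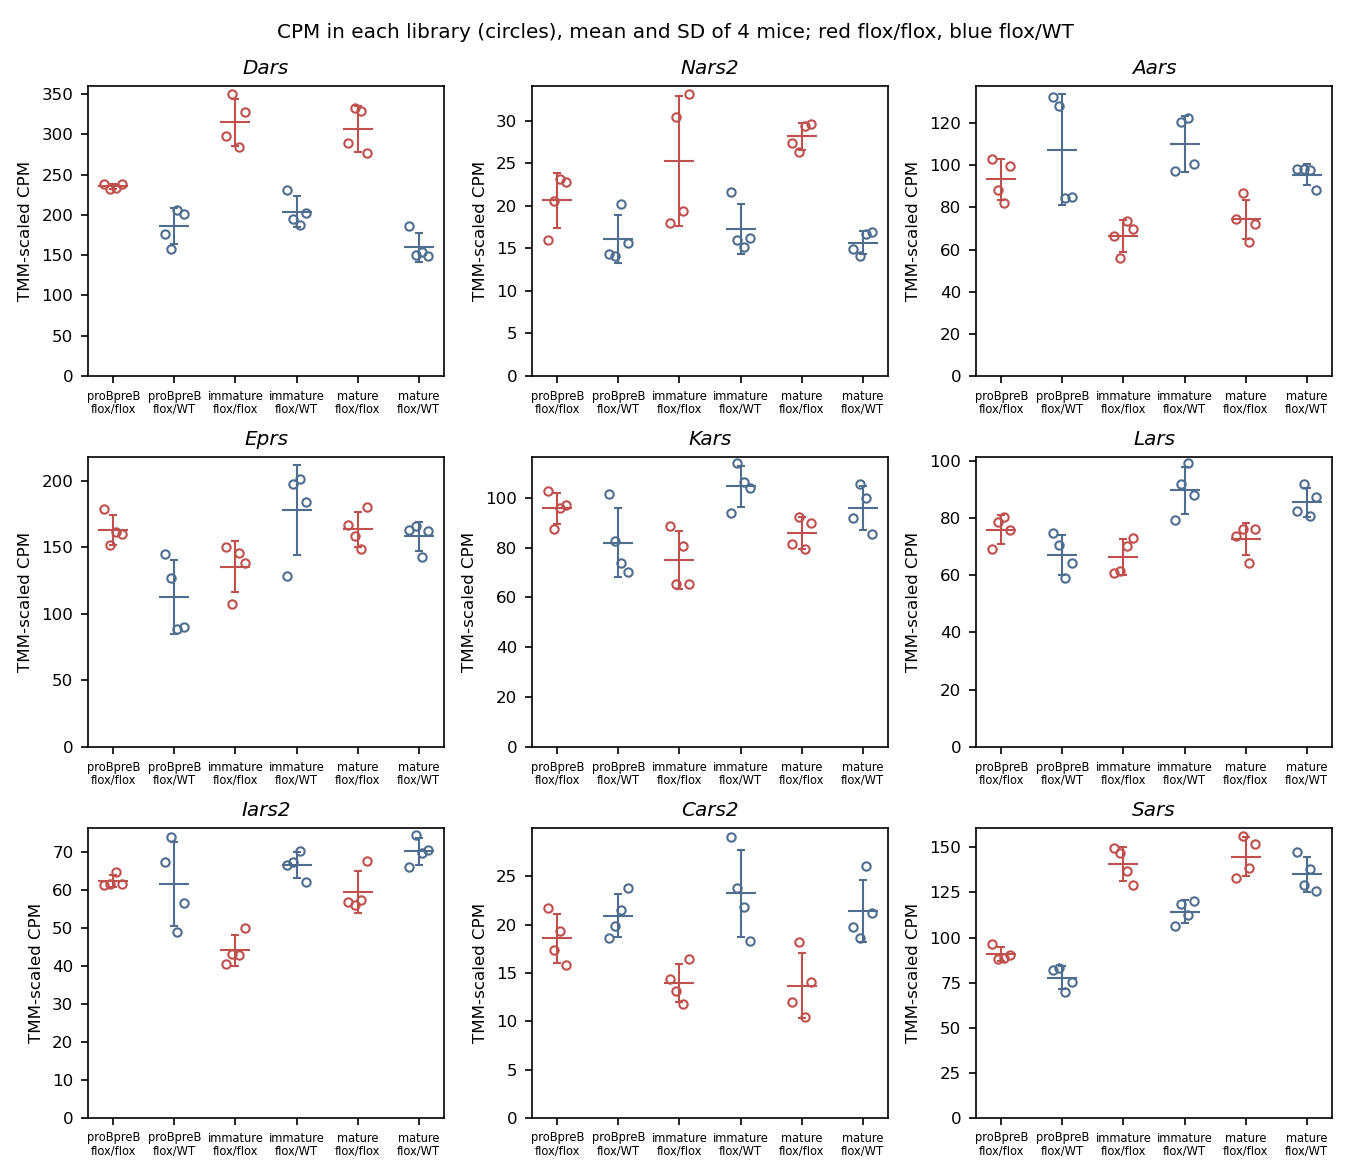
TMM-scaled CPM of 9 synthetase genes in each of the 24 libraries (circles), with the mean and SD of 4 mice per group, flox/flox in red left of flox/WT in blue for each population. Dars and Nars2 stand higher in flox/flox mature cells, while Aars, Kars, Lars, Iars2 and Cars2 stand lower in flox/flox immature cells.

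Of the 7 other enzymes of the complex, Kars and Lars fell in flox/flox immature cells. Kars, the lysine enzyme, measured 88.5, 65.3, 80.7 and 65.4 CPM in flox/flox, against 93.8, 114, 106 and 104 CPM in flox/WT. The groups did not overlap (log2 change -0.48, SE 0.12, adjusted p = 0.0039). Lars, the cytosolic leucine enzyme, had 60.8, 61.5, 70.3 and 73.2 CPM in flox/flox, against 79.3, 91.96, 99.3 and 88.0 CPM in flox/WT, again without overlap (log2 change -0.43, SE 0.10, adjusted p = 0.00295). Both calls held under all 16 alternatives. Neither gene was called in proBpreB or mature cells.

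Eprs encodes the fused glutamate and proline enzyme. In proBpreB cells it measured 178, 152, 162 and 160.1 CPM in flox/flox, against 145, 127, 88.4 and 89.9 CPM in flox/WT. All flox/flox libraries were higher, and flox/WT replicates 3 and 4 were low (log2 change 0.53, SE 0.15, adjusted p = 0.0223). The call failed without flox/flox replicate 1 (adjusted p = 0.0986), 3 (0.0568) or 4 (0.0676) and without flox/WT replicate 3 (0.0993) or 4 (0.159). In immature cells it had 150.02, 108, 146 and 138 CPM in flox/flox, against 128, 198, 201 and 184 CPM in flox/WT, and with flox/WT replicate 1 low the groups overlapped (log2 change -0.39, SE 0.15, adjusted p = 0.054). Iars, Mars, Qars and Rars had immature log2 changes between -0.30 and -0.09 without a call. Mars, the methionine enzyme, was lower in mature cells (log2 change -0.35, SE 0.11, adjusted p = 0.0243), a call lost without flox/flox replicate 3 (0.121) or 4 (0.0981) and without flox/WT replicate 3 (0.0637) or 4 (0.0619), and in a fit of the compared groups alone (0.095).

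Among cytosolic enzymes outside the complex, Aars, the alanine enzyme, had the largest called fall. In immature cells it measured 66.5, 56.2, 73.7 and 69.9 CPM in flox/flox, against 97.2, 121, 123 and 101 CPM in flox/WT. No library of one genotype reached the other (log2 change -0.73, SE 0.14, adjusted p = 0.000262), and the call held under all 16 alternatives. In mature cells it had 74.4, 86.7, 63.8 and 72.4 CPM in flox/flox, against 98.4, 98.2, 97.7 and 88.2 CPM in flox/WT; the groups were again apart, but the log2 change of -0.36 (SE 0.14) was not called (adjusted p = 0.0718). Aars and Exosc6 lie on the same strand and their longest exon overlap is 1326 bases, and Exosc6 had a log2 change of -0.22 in immature cells, which was not called. Sars, the serine enzyme, moved the other way, with 149, 147, 137 and 129 CPM in flox/flox, against 106, 119, 112 and 121 CPM in flox/WT immature cells. Its groups did not overlap (log2 change 0.30, SE 0.09, adjusted p = 0.0216). That call failed without flox/flox replicate 1 (adjusted p = 0.0744) or 2 (0.0646) and without flox/WT replicate 1 (0.0561) or 3 (0.0532), and with no filter on low counts (0.066).

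Gars, the glycine enzyme, fell in immature cells (log2 change -0.34, SE 0.11, adjusted p = 0.0291), which failed without flox/flox replicate 2 (0.0902), 3 (0.0677) or 4 (0.0685) and without flox/WT replicate 4 (0.0529). Tars, the threonine enzyme, was lower in mature cells, with 74.0, 61.2, 58.7 and 65.9 CPM in flox/flox, against 75.5, 100.4, 79.5 and 84.0 CPM in flox/WT. The ranges lay close together without touching (log2 change -0.39, SE 0.13, adjusted p = 0.0374), and leaving out a mouse gave, for flox/flox replicates 2, 3 and 4 and flox/WT replicates 2, 3 and 4, adjusted p = 0.0503, 0.12, 0.0773, 0.162, 0.0519 and 0.0703. A fit with no filter on low counts gave 0.0565 for Tars and a fit of the compared groups alone 0.0663. The remaining cytosolic genes, Cars, Farsa, Farsb, Hars, Vars, Wars and Yars, had log2 changes from -0.33 to 0.12 over the 3 populations and no call.

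Of the mitochondrial enzymes, those for isoleucine and cysteine fell in immature cells. Iars2 measured 40.4, 43.1, 42.8 and 49.9 CPM in flox/flox, against 66.4, 67.2, 70.2 and 62.1 CPM in flox/WT. The groups were well apart (log2 change -0.59, SE 0.11, adjusted p = 0.000281). Exons of Iars2 and of Rab3gap2, on the opposite strand, overlap by up to 2034 bases, and the Rab3gap2 log2 change was 0.15 and not called. Cars2 had 14.4, 13.1, 11.8 and 16.4 CPM in flox/flox, against 29.0, 23.8, 21.8 and 18.3 CPM in flox/WT immature cells. All flox/flox libraries were lower (log2 change -0.73, SE 0.18, adjusted p = 0.00319). Both immature calls held under all 16 alternatives. In mature cells Cars2 had 12.0, 18.2, 10.5 and 14.1 CPM in flox/flox, against 19.8, 18.6, 26.0 and 21.2 CPM in flox/WT, where flox/flox replicate 2 came close to flox/WT replicate 2 (log2 change -0.65, SE 0.18, adjusted p = 0.0115). That call failed without flox/flox replicate 3 (adjusted p = 0.0648) and without flox/WT replicate 3 (0.0673). Rars2, the arginine enzyme, was lower in immature cells (log2 change -0.41, SE 0.13, adjusted p = 0.0233), which failed without flox/flox replicate 1 (0.132) or 3 (0.0631) and without flox/WT replicate 2 (0.0518) or 3 (0.0646). Fitting the compared groups alone ended the mature call of Cars2 (0.0553) and the call of Rars2 (0.0573).

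The mitochondrial alanine, serine and tyrosine enzymes were lower in flox/flox mature cells. Aars2 measured 12.4, 6.13, 7.50 and 10.9 CPM in flox/flox, against 13.0, 13.1, 13.2 and 22.7 CPM in flox/WT. The groups met closely and flox/WT replicate 4 was high (log2 change -0.75, SE 0.21, adjusted p = 0.0143), and the call failed without flox/flox replicate 2 (adjusted p = 0.0703) or 3 (0.069) and without flox/WT replicate 4 (0.132). Sars2 had 7.49, 17.6, 10.7 and 12.7 CPM in flox/flox, against 15.3, 28.2, 19.4 and 17.5 CPM in flox/WT. Flox/flox replicate 2 lay within the flox/WT range (log2 change -0.73, SE 0.21, adjusted p = 0.0173), and the call failed without flox/flox replicate 1 (0.0985) or 3 (0.0731) and without flox/WT replicate 2 (0.127). Yars2 had 17.9, 21.3, 15.0 and 22.5 CPM in flox/flox, against 30.2, 23.9, 27.5 and 26.0 CPM in flox/WT. Its groups did not overlap (log2 change -0.49, SE 0.16, adjusted p = 0.0333), but leaving out a mouse gave, for flox/flox replicates 1 and 3 and flox/WT replicates 1, 3 and 4, adjusted p = 0.1, 0.156, 0.0538, 0.0736 and 0.0649. Fitting the compared groups alone ended the calls of Aars2 (0.0834), Sars2 (0.0882) and Yars2 (0.0845), and dropping the filter on low counts that of Yars2 (0.0522). The other 8 mitochondrial genes, Ears2, Fars2, Hars2, Mars2, Pars2, Tars2, Vars2 and Wars2, were not called between genotypes in any population, and their log2 changes ran from -0.54 to 0.50.

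The genotype effect itself differed between populations for 5 of the 35 members, in comparisons where the share called was near that of all tested genes. From the immature effect the proBpreB effect was subtracted in the same edgeR fit. This difference passed for 4 members, all lower (11.4% called, against 10.9% of tested genes, 4.72% higher and 6.14% lower), with a median of -0.22 over the 35 and 0.03 over all tested genes. The 4 are Eprs (difference of log2 changes -0.93, SE 0.21, adjusted p = 0.00319), Kars (-0.70, SE 0.17, adjusted p = 0.00598), Lars (-0.61, SE 0.15, adjusted p = 0.00614) and Iars2 (-0.61, SE 0.16, adjusted p = 0.0122). The first 3 held under all 16 alternatives, and Iars2 failed without flox/flox replicate 1 (adjusted p = 0.0523) and without flox/WT replicate 3 (0.0693). Kars shows the pattern by library, with 103, 87.5, 95.9 and 97.0 CPM in flox/flox, against 101, 82.6, 73.9 and 70.2 CPM in flox/WT proBpreB cells, where the flox/flox mean was the higher. For Iars2 the proBpreB values were 61.3, 61.5, 64.7 and 61.5 CPM in flox/flox, against 67.2, 73.7, 48.7 and 56.5 CPM in flox/WT. Lars had 69.0, 78.6, 80.3 and 75.8 CPM in flox/flox, against 74.6, 70.5, 59.0 and 64.1 CPM in flox/WT proBpreB cells. In all 3 genes the proBpreB groups overlapped, and flox/WT replicates 3 and 4 were the lower of that group. The count of 4 was 7 without flox/WT replicate 1.

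Dars was the member whose effect was larger in mature than in proBpreB cells (difference of log2 changes 0.60, SE 0.15, adjusted p = 0.0203). It was the 1 call of 35 in that comparison (2.86%, against 3.06% of tested genes, 2.27% higher and 0.786% lower), and failed without flox/flox replicate 2 (adjusted p = 0.0715) or 3 (0.0845) and without flox/WT replicate 3 (0.0905) or 4 (0.116). For the mature effect minus the immature effect, 0 of 35 members were called by edgeR (against 7.74% of tested genes, 5.51% higher and 2.23% lower). At an unadjusted p under 0.05 there were 7 members, and DESeq2 called 0; without flox/WT replicate 1 edgeR called 3 and without flox/flox replicate 4 it called 1.

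Along maturation in control mice, cytosolic synthetases rose at the step to the immature stage. In flox/WT mice 14 of the 35 were higher and 4 lower in immature than in proBpreB cells (51.4% called, against 49.4% of tested genes, 24% higher and 25.4% lower), and 11 of the 14 rises were cytosolic (median of the 20 cytosolic genes 0.35, of all tested genes 0.00). In flox/flox mice the same step had 6 higher and 9 lower (42.9%, against 55.9% of tested genes, 28.7% higher and 27.2% lower), with 4 rises and 3 falls among cytosolic and 2 rises and 6 falls among mitochondrial genes. The median of the cytosolic genes was 0.07 in flox/flox mice. Without flox/WT replicate 3 the flox/WT count of 18 was 11. For each of the 11 cytosolic rises, flox/WT proBpreB replicates 3 and 4 lay below replicates 1 and 2. No fit left out both of these low replicates. The 2 steps share no libraries, and the difference between them is the difference of genotype effects given above.

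Ears2, the mitochondrial glutamate enzyme, had the largest rise in both genotypes. It measured 13.5, 15.2, 14.3 and 13.6 CPM in immature and 9.94, 9.83, 8.98 and 6.51 CPM in proBpreB cells of flox/flox mice (log2 change 0.68, SE 0.19, adjusted p = 0.0031). In flox/WT mice it had 13.1, 16.8, 16.2 and 19.4 CPM in immature and 6.53, 7.47, 4.51 and 6.29 CPM in proBpreB cells (log2 change 1.398, SE 0.19, adjusted p = 5.58e-07). Immature libraries were above proBpreB libraries throughout. Ears2 overlaps Ubfd1 on the opposite strand by 89 bases, and Ubfd1 changed by 0.46 in flox/flox and 0.41 in flox/WT mice. Farsb, a subunit of the phenylalanine enzyme, had 154, 127, 143 and 145 CPM in immature and 104, 91.7, 97.2 and 107 CPM in proBpreB cells of flox/flox mice (log2 change 0.51, SE 0.12, adjusted p = 0.000635). In flox/WT mice it had 173, 163, 165 and 170.5 CPM in immature and 113, 92.9, 81.7 and 79.5 CPM in proBpreB cells (log2 change 0.87, SE 0.12, adjusted p = 6.25e-07). These groups did not overlap in either genotype. Farsa, the other subunit, measured 0.11 and 0.08 on the log2 scale at this step and was not called. Exons of Farsb and of Sgpp2, on the opposite strand, overlap by up to 248 bases, and Sgpp2 changed by 2.11 in flox/flox and 2.19 in flox/WT mice at the same step; its part in the Farsb change was not tested.

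Sars and Vars also rose in both genotypes. Sars had 149, 147, 137 and 129 CPM in immature and 96.5, 88.0, 88.9 and 90.04 CPM in proBpreB cells of flox/flox mice (log2 change 0.63, SE 0.09, adjusted p = 1.64e-06), and in flox/WT mice 106, 119, 112 and 121 CPM in immature and 82.2, 83.4, 69.8 and 75.6 CPM in proBpreB cells (log2 change 0.56, SE 0.09, adjusted p = 1.31e-05). Vars had 772, 847, 925 and 955 CPM in immature and 551, 564, 553 and 595 CPM in proBpreB cells of flox/flox mice (log2 change 0.63, SE 0.13, adjusted p = 0.000139), and in flox/WT mice 763, 939.5, 901 and 1013 CPM in immature and 638, 676, 501 and 599 CPM in proBpreB cells (log2 change 0.58, SE 0.13, adjusted p = 0.00038). Immature and proBpreB libraries did not overlap for either gene in either genotype. All 4 calls held under the 16 alternatives. Dars rose in flox/flox mice by 0.42 on the log2 scale (SE 0.11, adjusted p = 0.00133), by the values given above, and changed by 0.13 in flox/WT mice (adjusted p = 0.3).

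Iars and Eprs rose at this step in flox/WT mice. Iars, the cytosolic isoleucine enzyme, measured 139, 181, 174 and 161 CPM in immature and 136, 121, 67.4 and 74.3 CPM in proBpreB cells of flox/WT mice. All immature libraries were higher, with proBpreB replicates 1 and 2 just below them (log2 change 0.72, SE 0.17, adjusted p = 0.000784). In flox/flox mice it had 143, 102, 148 and 142 CPM in immature and 124, 88.5, 113 and 117 CPM in proBpreB cells (log2 change 0.28, adjusted p = 0.16). Eprs, by the values given above, changed by 0.66 in flox/WT mice (SE 0.15, adjusted p = 0.000418) and by -0.27 in flox/flox mice (adjusted p = 0.12). The other flox/WT rises were Gars, Kars, Lars, Nars, Tars, Wars, Fars2 and Pars2, with log2 changes from 0.33 to 0.51. Without flox/WT replicate 3 the calls of Tars (adjusted p = 0.109), Wars (0.0618), Nars (0.0848) and Kars (0.0951) were lost, and without replicate 4 those of Tars (0.121), Nars (0.0887), Kars (0.0953), Pars2 (0.0907) and Wars (0.05002). Without replicate 2 Kars (0.0689) and Pars2 (0.0542) were lost, and without replicate 1 Pars2 (0.0842). Fars2 was lost in 12 of 16 alternatives, the replicate block among them (adjusted p = 0.054). Mars2, the mitochondrial methionine enzyme, rose in flox/flox mice, with 23.2, 29.4, 20.3 and 25.2 CPM in immature and 18.3, 20.2, 14.2 and 16.4 CPM in proBpreB cells. The ranges nearly met (log2 change 0.51, SE 0.20, adjusted p = 0.0313), and the call was lost when any of the 4 flox/flox mice was left out (0.051, 0.0803, 0.0668 and 0.116).

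In flox/flox mice 6 of 15 mitochondrial genes fell at this step (40%, against 27.2% of tested genes), and in flox/WT mice 3 of 15 (20%, against 25.4%). Tars2, the threonine enzyme, measured 38.4, 34.9, 30.6 and 37.4 CPM in immature and 61.4, 58.7, 61.8 and 65.2 CPM in proBpreB cells of flox/flox mice (log2 change -0.81, SE 0.14, adjusted p = 2.71e-05). Flox/WT mice had 47.7, 42.8, 40.6 and 48.6 CPM in immature and 57.9, 50.8, 68.0 and 51.0 CPM in proBpreB cells (log2 change -0.34, SE 0.14, adjusted p = 0.0477), a call lost without flox/WT replicate 3 (0.348) or 1 (0.0754) or flox/flox replicate 1 (0.0596), 2 (0.0588) or 4 (0.0628), and with no filter on low counts (0.0684). Immature libraries were lower throughout. Sars2 had 16.4, 20.9, 15.0 and 15.1 CPM in immature and 26.0, 30.1, 26.7 and 29.3 CPM in proBpreB cells of flox/flox mice (log2 change -0.74, SE 0.21, adjusted p = 0.00359), and in flox/WT mice 15.0, 21.1, 23.4 and 23.0 CPM in immature and 35.7, 35.8, 25.1 and 30.5 CPM in proBpreB cells (log2 change -0.62, SE 0.20, adjusted p = 0.0126), lost without flox/WT replicate 1 (0.104). Neither pair of groups overlapped.

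Aars2 fell in flox/flox mice, with 12.4, 14.9, 15.1 and 18.3 CPM in immature and 25.9, 22.1, 20.0 and 27.0 CPM in proBpreB cells (log2 change -0.64, SE 0.21, adjusted p = 0.00928; 0.0648 without flox/flox replicate 1). Vars2, the mitochondrial valine enzyme, had 19.6, 17.0, 22.2 and 15.3 CPM in immature and 29.9, 27.4, 25.7 and 25.6 CPM in proBpreB cells of flox/flox mice (log2 change -0.55, SE 0.21, adjusted p = 0.0267), lost without flox/flox replicate 1 (0.0878), 2 (0.0871) or 4 (0.104). For both genes the immature libraries were the lower without overlap. Cars, the cytosolic cysteine enzyme, fell in both genotypes without overlap, with 37.2, 29.2, 37.6 and 31.6 CPM in immature and 50.1, 44.0, 49.7 and 51.4 CPM in proBpreB cells of flox/flox mice (log2 change -0.53, SE 0.12, adjusted p = 0.000531). Flox/WT mice had 35.7, 45.6, 43.4 and 37.9 CPM in immature and 57.0, 65.3, 63.2 and 59.2 CPM in proBpreB cells (log2 change -0.59, SE 0.12, adjusted p = 0.000148). Hars2, the mitochondrial histidine enzyme, fell in flox/WT mice, with 48.9, 52.7, 40.8 and 38.8 CPM in immature and 49.96, 54.6, 68.5 and 65.1 CPM in proBpreB cells. These groups overlapped (log2 change -0.40, SE 0.13, adjusted p = 0.0136), and the call failed without flox/WT replicate 3 (0.154) or 4 (0.139). Iars2, Aars, Kars and Cars2 fell in flox/flox mice by 0.50, 0.49, 0.35 and 0.41 on the log2 scale. Kars failed without flox/flox replicate 4 (adjusted p = 0.102), and Cars2 with the replicate block (0.0589) and in 7 other alternatives.

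**Figure D4:**
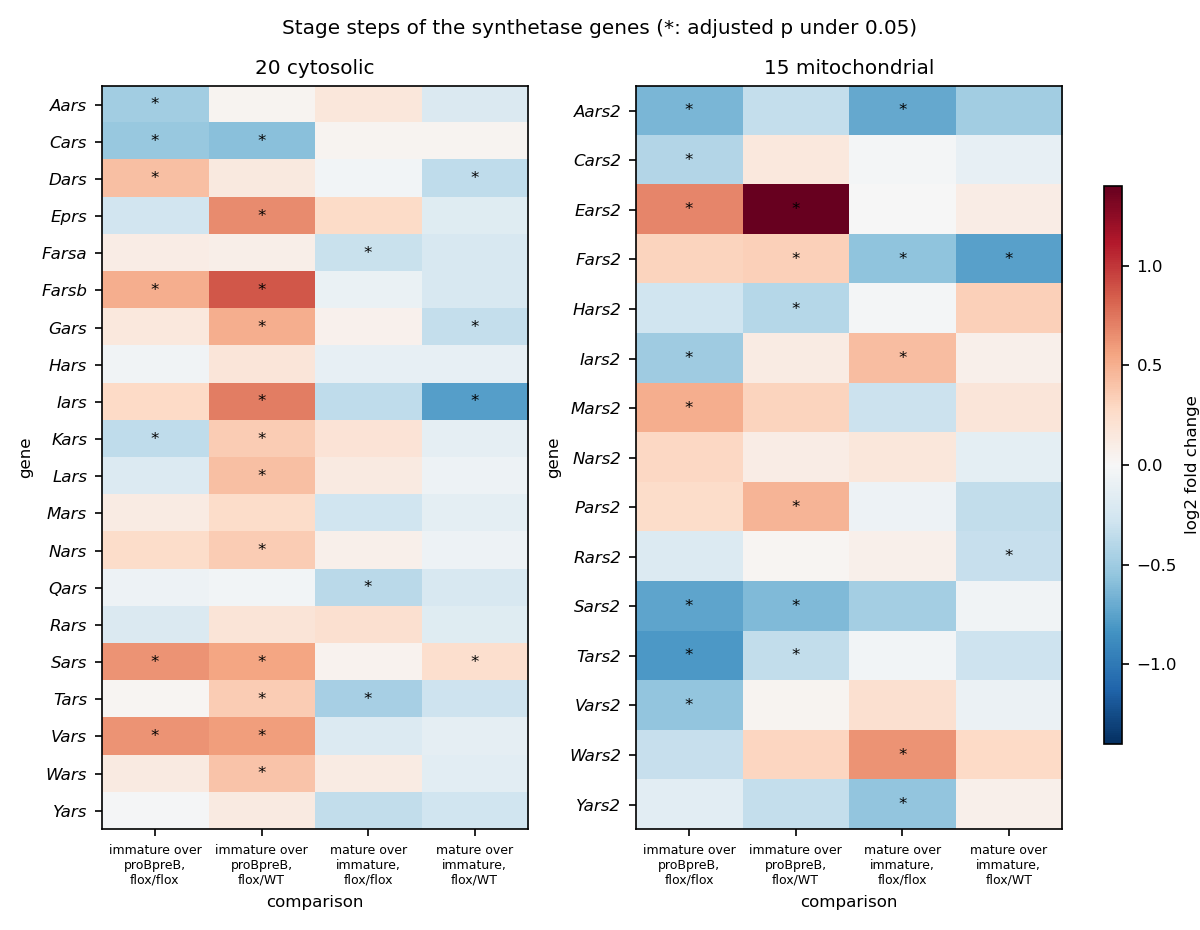
Log2 fold change (colour, from blue for lower to red for higher) of 20 cytosolic and 15 mitochondrial synthetase genes at 2 maturation steps in flox/flox and flox/WT mice; stars mark an edgeR adjusted p under 0.05. The flox/WT column of the step from proBpreB to immature cells holds 11 starred rises among the cytosolic genes, and the flox/flox column 4.

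From the immature to the mature stage more members fell than rose in both genotypes, but a smaller share was called than of all tested genes. In flox/flox mice 2 were higher and 6 lower in mature cells (22.9% called, against 26.5% of tested genes, 12.9% higher and 13.6% lower), and in flox/WT mice 1 was higher and 5 lower (17.1%, against 32.7% of tested genes, 15.6% higher and 17.1% lower). Medians were -0.03 in flox/flox and -0.13 in flox/WT mice, and 0.01 over all tested genes in both. The flox/flox count of 8 was 5, 4, 4 and 3 without flox/flox replicate 1, 2, 3 or 4.

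Fars2, the mitochondrial phenylalanine enzyme, fell in both genotypes. It measured 30.5, 22.3, 24.2 and 24.8 CPM in mature and 34.2, 45.9, 32.1 and 38.1 CPM in immature cells of flox/flox mice (log2 change -0.56, SE 0.14, adjusted p = 0.00305; 0.0742 without flox/flox replicate 2). Flox/WT mice had 22.9, 18.0, 18.5 and 20.7 CPM in mature and 41.3, 31.1, 30.1 and 33.8 CPM in immature cells (log2 change -0.76, SE 0.14, adjusted p = 9.88e-05). Mature libraries were below immature ones in each genotype. In flox/WT mice Iars had 103, 81.8, 101 and 97.9 CPM in mature cells, below all of the immature values given above (log2 change -0.77, SE 0.17, adjusted p = 0.000672). Dars in flox/WT mice changed by -0.35 (SE 0.11, adjusted p = 0.0111; 0.0641 without flox/WT replicate 4), and in flox/flox mice by -0.04 (adjusted p = 0.84).

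Gars in flox/WT mice had 134, 122, 111 and 129 CPM in mature and 159, 156, 154 and 158 CPM in immature cells, without overlap (log2 change -0.34, SE 0.11, adjusted p = 0.0198). It was lost without flox/WT replicate 2 (0.055) or 3 (0.0745). Rars2 had 31.1, 29.2, 35.955 and 38.9 CPM in mature and 43.1, 44.5, 45.0 and 37.3 CPM in immature cells of flox/WT mice, where mature replicate 4 lay within the immature range (log2 change -0.33, SE 0.13, adjusted p = 0.0492). That call failed in 8 of 16 alternatives, 0.167, 0.234 and 0.107 without flox/WT replicates 1, 2 and 3 and 0.061 and 0.068 without flox/flox replicates 3 and 4 among them. Sars was the 1 rise in flox/WT mice, with 147, 129, 138 and 126 CPM in mature cells, all above the immature values (log2 change 0.24, SE 0.09, adjusted p = 0.0481). It was lost in 11 of 16 alternatives, the replicate block (0.0611) and each of the 8 mice left out among them (0.053 to 0.264).

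In flox/flox mice the mature falls were Aars2, Yars2, Tars, Qars, Farsa and Fars2. Aars2 changed by -0.72 (SE 0.21, adjusted p = 0.0123), lost without flox/flox replicate 2 (0.0936), 3 (0.0741) or 4 (0.0507). Yars2 changed by -0.55 (SE 0.16, adjusted p = 0.0102), with 26.5, 36.3, 27.3 and 22.1 CPM in immature cells beside the mature values given above. It failed without flox/flox replicate 2 (0.0672) or 3 (0.0753). Tars, with 94.1, 64.9, 103 and 94.6 CPM in immature cells, of which replicate 2 was low, changed by -0.46 (SE 0.13, adjusted p = 0.00747), lost without flox/flox replicate 3 (0.111) or 4 (0.0501). Qars, the glutamine enzyme, had 47.8, 51.0, 44.6 and 38.1 CPM in mature and 61.0, 68.2, 50.4 and 56.7 CPM in immature cells, with a narrow overlap (log2 change -0.38, SE 0.12, adjusted p = 0.0195). It failed without flox/flox replicate 1 (0.0617), 2 (0.0513) or 4 (0.106). Farsa changed by -0.31 and failed without flox/flox replicate 1 (0.0693), 3 (0.106) or 4 (0.188). Fitting the compared groups alone ended the calls of Qars (0.0558) and Farsa (0.0725), and dropping the filter on low counts that of Farsa (0.0622).

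The rises in flox/flox mature cells were Iars2 and Wars2. Iars2 had 56.7, 56.0, 57.2 and 67.6 CPM in mature cells, all above the immature values of 40.4 to 49.9 CPM (log2 change 0.43, SE 0.11, adjusted p = 0.00523, held under all 16 alternatives). Wars2, the mitochondrial tryptophan enzyme, had 9.36, 11.0, 11.3 and 17.8 CPM in mature and 7.59, 7.67, 10.3 and 6.27 CPM in immature cells. Mature replicate 4 was high and the groups overlapped (log2 change 0.63, SE 0.23, adjusted p = 0.0376). The call failed without flox/flox replicate 1 (0.0528), 2 (0.087) or 4 (0.424), and in a fit of the compared groups alone (0.074).

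Lars2 took 0.756% to 3.2% of all counts and ranked first or second among the genes of every library. Such a level is out of scale with the other mitochondrial enzymes, whose highest single value was 74.5 CPM, for Iars2 in a flox/WT mature library. Its 3894-base transcript holds stretches that match 2 other annotated genes, Gm15564 over 72 bases at 98.6% identity and AA474408 over 97 bases at 94.8% and 50 bases at 96.0%, and neither gene is among those counted. The sources used here do not give how reads matching several places were counted. In these counts, reads from those stretches cannot be told from reads of such copies. Most of the Lars2 transcript lies outside those stretches, but counts per gene do not show where along it the reads fell. The search covered annotated transcripts of other genes only, and not the genome. The ratio of Lars2 to Rn45s, the gene that holds the ribosomal RNA precursor, ran from 2.47 to 10.7 over the libraries. The same 2 libraries were highest for both genes, flox/flox immature replicate 2 with 35064 CPM of Lars2 and 8285 CPM of Rn45s, and flox/WT mature replicate 2 with 26298 CPM of Lars2 and 8289 CPM of Rn45s. The highest ratio was that of flox/flox mature replicate 2, with 18542 CPM of Lars2 and the lowest Rn45s of all libraries, 1732 CPM.

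In immature cells Lars2 measured 20574, 35064, 15821 and 18874 CPM in flox/flox, against 19254, 12648, 10001 and 13245 CPM in flox/WT. Flox/flox replicate 2 was highest of all libraries and the groups overlapped (log2 change 0.71, SE 0.25, adjusted p = 0.0412). Leaving out flox/flox replicate 2 gave an adjusted p of 0.231 and leaving out flox/flox replicate 1 gave 0.0639. Leaving out flox/WT replicates 2, 3 and 4 gave 0.085, 0.138 and 0.0702, a fit with no filter on low counts gave 0.0941, and a fit of the compared groups alone gave 0.0904. Rn45s had 3017, 8285, 3982 and 3019.6 CPM in the same flox/flox and 2828, 3453, 2890.1 and 3308 CPM in the same flox/WT libraries, so replicate 2 was also the highest of these for Rn45s; its part in the Lars2 result was not tested. In proBpreB cells Lars2 had 6704, 7412, 6819 and 7906 CPM in flox/flox, against 7193, 8325, 7339.6 and 9705 CPM in flox/WT (log2 change -0.18, adjusted p = 0.767). In mature cells it had 17158, 18542, 13123 and 10550.0 CPM in flox/flox, against 20018, 26298, 13944 and 12056 CPM in flox/WT (log2 change -0.28, adjusted p = 0.469). The groups overlapped in both populations. Between stages, Lars2 was higher in immature than in proBpreB cells by 1.65 in flox/flox (SE 0.25, adjusted p = 6.25e-06) and by 0.76 in flox/WT mice (SE 0.25, adjusted p = 0.0128; 0.148 without flox/WT replicate 1). From immature to mature cells it changed by -0.61 in flox/flox mice (adjusted p = 0.0711, and 0.0483 with each mouse as its own replicate block) and by 0.39 in flox/WT mice (adjusted p = 0.233).

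**Figure D5:**
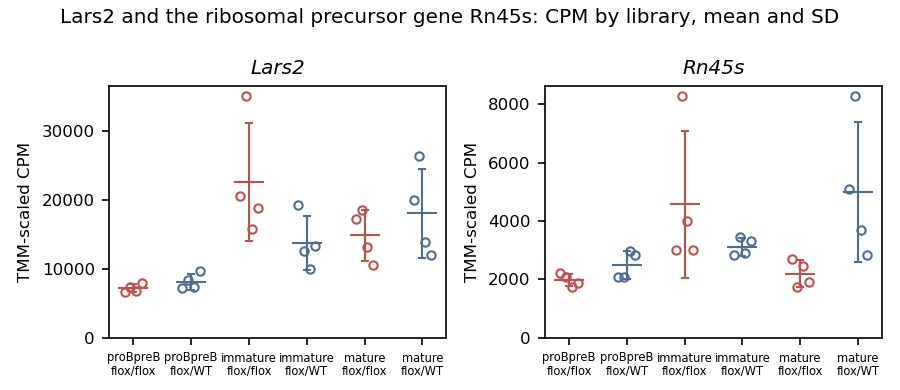
TMM-scaled CPM of Lars2 (left) and Rn45s (right) in each library (circles) with the mean and SD of 4 mice, flox/flox in red left of flox/WT in blue for each population. Replicate 2 of the flox/flox immature cells (35064 and 8285 CPM) and replicate 2 of the flox/WT mature cells (26298 and 8289 CPM) are the highest libraries in both panels.

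Of the 3 scaffolds of the multisynthetase complex, Aimp2 rose in mature cells (63.0 ± 8.64 CPM in flox/flox, against 42.1 ± 3.42 CPM in flox/WT, SD, n = 4 each; log2 change 0.58, edgeR adjusted p = 0.00102), and Aimp1 and Eef1e1 were not called in any population. Of 11 other aminoacylation genes 1 rose and 4 fell in flox/flox immature cells (of all tested genes 10.2% rose and 10.5% fell). The falls were Gatb, Gatc and Qrsl1, the subunits of the amidotransferase that completes mitochondrial glutaminyl-tRNA after Ears2 has charged it with glutamate, at -0.77, -0.44 and -0.39, and Aarsd1, an alanyl-tRNA editing protein, at -0.76. The rise was Prorsd1, a relative of prolyl-tRNA editing proteins, with 77.9 ± 12.3 CPM in flox/flox, against 47.2 ± 4.59 CPM in flox/WT immature cells (SD, n = 4 each; log2 change 0.72, edgeR adjusted p = 0.000296). In mature cells this list had 1 rise and 1 fall, against 9.69% of tested genes higher and 6.62% lower. In proBpreB cells edgeR called 0 of the list (1 at an unadjusted p under 0.05) and 6.13% of tested genes. Gatc and Qrsl1 were named after their values were seen, to complete the 4 falls.

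The 12 members known as ATF4 targets (Aars, Cars, Eprs, Gars, Iars, Lars, Mars, Nars, Sars, Tars, Wars and Yars) had 1 rise and 3 falls in immature cells (median -0.27; of all tested genes 10.2% rose and 10.5% fell) and 0 rises and 2 falls in mature cells (median -0.13; of all tested genes 9.69% rose and 6.62% fell). The 8 cytosolic members outside that list had 1 rise and 1 fall in immature cells (median -0.14) and 1 rise and 0 falls in mature cells (median -0.11). Of 24 other ATF4 targets tested, 4 rose and 6 fell in immature cells. The falls included Phgdh, the first enzyme of serine synthesis, at -1.23 and Mthfd2, of mitochondrial one-carbon metabolism, at -1.46. The rises included Eif4ebp1, the brake on cap-dependent translation, at 1.19, and Stc2, a secreted glycoprotein, which had 0 counts in flox/WT immature libraries and averaged 33.7 ± 7.28 CPM in flox/flox (SD, n = 4). In mature cells 7 of these targets rose and 1 fell. In proBpreB cells 4 rose and 0 fell (of all tested genes 3.38% rose and 2.75% fell). Atf4 itself was not called between genotypes.

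Of 13 Myc and growth genes, 3 rose in flox/flox proBpreB cells (median 0.28) and 8 fell in immature cells (median -0.62). In mature cells edgeR called 0 of them (median -0.03, with 3 at an unadjusted p under 0.05). Of all tested genes 3.38% rose in proBpreB cells, 10.5% fell in immature cells and 16.3% were called in mature cells. Myc, a driver of growth and of many biosynthetic genes, averaged 83.9 ± 18.4 CPM in flox/flox, against 43.4 ± 19.2 CPM in flox/WT proBpreB cells (log2 change 0.95, edgeR adjusted p = 0.00718), and 58.7 ± 9.10 CPM in flox/flox, against 91.8 ± 6.48 CPM in flox/WT immature cells (SD, n = 4 each; log2 change -0.64, edgeR adjusted p = 0.0383). The difference of these effects was -1.59 on the log2 scale (adjusted p = 0.00124). In flox/flox immature cells Srm, which makes spermidine, fell by 0.62 on the log2 scale, Cad, of pyrimidine synthesis, by 0.71, and the nucleolar proteins Nop58 and Nop56 by 0.66 and 0.41.

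Markers of stage, of division and of other cell types differed between the same groups. The 11 proBpreB markers summed to 1123 to 1473 CPM in flox/flox, against 487 to 693 CPM in flox/WT immature cells (4 higher and 2 lower), and to 323 to 384 CPM in flox/flox, against 166 to 287 CPM in flox/WT mature cells (4 higher and 0 lower). The 11 mature markers summed to 9093 to 10269 CPM in flox/flox, against 11652 to 14720.3 CPM in flox/WT immature cells (0 higher and 6 lower), and to 20500.5 to 23978 CPM in flox/flox, against 27748 to 32183 CPM in flox/WT mature cells (0 higher and 3 lower). None of these 4 pairs of ranges overlapped. All 24 proliferation genes were lower in flox/flox immature cells (median -1.68), with a summed level of 1139 to 1560.1 CPM in flox/flox, against 3486 to 4413 CPM in flox/WT libraries. In mature cells 14 of the 24 were higher (median 0.72; 1220.1 to 1708 CPM in flox/flox, against 743 to 1337 CPM in flox/WT). Of 11 erythroid genes 6 were higher in flox/flox immature cells, with a sum of 6685 to 12618 CPM in flox/flox, against 1705 to 5168 CPM in flox/WT, and of 10 neutrophil and monocyte genes 3 were higher (11632 to 15547 CPM, against 7940 to 9364 CPM). In mature cells the erythroid sum was 5351 to 14282 CPM in flox/flox, against 2774 to 7265 CPM in flox/WT. The 6 B lineage markers summed to 2304 to 2449 CPM in flox/flox, against 3344 to 3683 CPM in flox/WT proBpreB cells, and 2 of the 6 were lower. In immature cells their sum was 6556 to 8035 CPM in flox/flox, against 6325 to 7461 CPM in flox/WT. In mature cells it was 5719 to 6269 CPM in flox/flox, against 7073 to 8375 CPM in flox/WT, and 2 of the 6 were lower. None of these marker genes was at 0 in a whole group. Natural killer cell genes fell at the step to immature cells, 9 of 9 in each genotype, and summed to 32.6 to 43.5 CPM in flox/flox and 18.0 to 26.7 CPM in flox/WT immature cells. Mean sums of other lists moved in both directions, given here in CPM for flox/flox and then flox/WT mice. Neutrophil and monocyte genes rose from 4600 to 13142 and from 4927 to 8802. Erythroid genes rose from 2051 to 10370 and, with overlap, from 1464 to 3756. The plasmacytoid dendritic list rose from 2149 to 5586 and from 2531 to 4989. T cell genes fell from 153 to 40.6 and from 108 to 36.9, and proliferation genes from 7529 to 1361 and from 7305 to 3948. Between genotypes, 10.2% of all tested genes were higher and 10.5% lower in immature cells. In mature cells 9.69% were higher and 6.62% lower, and in proBpreB cells 2.75% were lower. At the step to immature cells 27.2% of tested genes fell in flox/flox and 25.4% in flox/WT mice. The part of these marker differences in the synthetase results was not tested.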

How the data were processed

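RNA of sorted cells was prepared with a low-input SMARTer kit, per the labels' protocols. The authors deposited raw read counts per gene. CASAVA, FastQC, Trim Galore, HISAT2, featureCounts, DESeq2 and the build mm10 are named, without versions, per the submitters' processing notes; the sources used here do not give the annotation or the strand setting. Counts were tested with edgeR 4.0.16 (R 4.3.3): TMM scaling, edgeR's expression filter (12850 genes kept) and a robust quasi-likelihood fit of 6 groups with 18 residual degrees of freedom. Genotype within each population, stage steps within each genotype and differences of genotype effects made 10 comparisons, with p-values adjusted by Benjamini-Hochberg over all tested genes in each. The standard error is the log2 fold change divided by the root of the F statistic. Levels per kb used GENCODE M21 transcripts. Lars2 was searched with BLAST 2.17.0 against the transcripts of other genes in that release, and not against the genome.

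Totals were 7850186 to 11863949 counts per library, so 3 counts equal 0.253 to 0.382 CPM; such limits cover counting error only. Each genotype had 1 male and 3 female mice by sex-linked genes. Each mouse gave 3 libraries, so the animal pairs populations but not genotypes. Over 24 same-mouse pairs and 5000 genes the correlation of deviations from group means ran from -0.284 to 0.372 (median 0.156). In 36 pairs within groups chi-square divided by its degrees of freedom was at least 5.82, so no library was a duplicate. The procedure was tested on simulated data for the genotype effect in immature cells. It recovered 4 of 50 changes of 1.3-fold, 38 of 50 of 1.6-fold, 38 of 50 of 2-fold and 50 of 50 of 4-fold. Small changes could thus go uncalled. Of the genes called there, 2.99% were false.

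Values in every library are given for Vhl, Lars2, up to 5 called members with the largest rise and up to 5 with the largest fall per comparison, and members with a called difference of effects. Of other lists, up to 4 called genes with the smallest adjusted p were named, and Myc, Atf4 and genes overlapping members were added after their values were seen. The members and lists were chosen with earlier results of these data known. Some listed genes are not reported here and were left out of their lists. Per comparison 16 alternatives were run, including DESeq2 1.42.0, other scaling and filters, a sex term, a replicate block (the mouse for stage comparisons, the replicate number for genotype) and leaving out each mouse.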

Additional observations from a re-analysis of the deposited data

Results flagged for a closer look

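In 13 of 222 groups of 4 libraries 1 library stood apart from the other 3 by Dixon's criterion, which chance alone gives in about 1 in 20 groups. Low libraries were flox/WT mature replicate 4 for Aars (88.2 CPM, the others 97.7 to 98.4), flox/WT mature replicate 3 for Eprs (142, the others 162 to 166) and Farsa (62.3, the others 71.8 to 72.1), flox/flox mature replicate 4 for Farsb (111, the others 138 to 143) and flox/flox immature replicate 2 for Iars (102, the others 142 to 148).

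High libraries were flox/WT mature replicate 1 for Dars (187 CPM, the others 149 to 154) and Wars2 (19.3, the others 11.7 to 12.8), flox/WT mature replicate 4 for Aars2 (22.7, the others 13.0 to 13.2), and flox/WT immature replicate 1 for Nars2 (21.6, the others 15.1 to 16.2) and Yars2 (33.7, the others 22.3 to 23.2). In flox/flox mice they were proBpreB replicate 2 for Wars (104, the others 98.9 to 99.7), proBpreB replicate 3 for Iars2 (64.7, the others 61.3 to 61.5) and mature replicate 4 for Iars2 (67.6, the others 56.0 to 57.2).

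The genotype effect differed between immature and proBpreB cells for Eprs (-0.927 on the log2 scale, immature minus proBpreB), Kars (-0.703), Lars (-0.612) and Iars2 (-0.609), and between mature and proBpreB cells for Dars (0.601, mature minus proBpreB), each by a test of the difference in edgeR.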

How the results depend on the processing

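Of 71 member results past the threshold, 33 kept their call under all 16 alternatives and 0 turned their direction; of 1136 refits 981 kept the call and 155 lost it. The count of called members moved by more than 1.5 times as follows. For genotype in proBpreB cells (1 member) it was 2 with a filter of 10 CPM or a sex term and 3 with DESeq2. With the groups compared alone it was 3 for genotype in mature cells (8) and 5 for mature against immature cells in flox/flox mice (8). Leaving out each mouse gave 0 to 1 for genotype in proBpreB cells, 2 to 8 in mature cells, 3 to 8 for mature against immature cells in flox/flox mice and 11 to 18 for immature against proBpreB cells in flox/WT mice (18). It gave 3 to 7 for the difference of effects between immature and proBpreB cells (4), 0 to 3 between mature and immature cells (0) and 0 to 1 between mature and proBpreB cells (1). For Lars2 the difference of effects between mature and proBpreB cells, -0.11 and not called, ran from -0.36 to 0.13 and was above 0 without flox/flox replicate 4 (0.07) and without flox/WT replicate 2 (0.13); the cause was not tested.

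With a replicate block (the mouse itself for stage steps and differences of effects, the replicate number for genotype) the counts were 1, 11 and 9 for genotype in proBpreB, immature and mature cells and 15, 9, 18 and 6 for the stage steps, against 1, 10, 8, 15, 8, 18 and 6 without it. The block ended the calls of Cars2, Fars2 and Sars named in the report and brought in that of Lars2. Numbers shared between genotypes mark different mice: 12 such pairs correlated from -0.302 to 0.544 (median -0.0461), and 10 of 24 libraries correlated best with their own number. At 3 counts per library the limit of detection was at most 0.382 CPM, so depth limits the members with the lowest CPM, Wars2 and Ears2, most.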

Other observations

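Translation elongation factors, which carry charged transfer RNAs to the ribosome and move it along, were lower in flox/flox mature cells. Of 9, 5 fell and 0 rose (median log2 change -0.36), against 6.62% of tested genes lower and 9.69% higher. The falls were Eef1g by 0.59 (edgeR adjusted p = 4.25e-05), Eef1a1 by 0.47 (adjusted p = 0.00137), Eef2 by 0.46 (adjusted p = 0.0164), Eef1b2 by 0.40 and Gfm2, a mitochondrial factor, by 0.36. In immature cells Eef1d fell by 0.34 and Eef1g by 0.28 (10.5% of tested genes fell).

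Of 7 genes for Atf4 and the kinases and regulators of eIF2 alpha, 3 fell in flox/flox immature cells (10.5% of tested genes fell). They were the kinases Eif2ak2 (log2 change -0.73, edgeR adjusted p = 0.00337) and Eif2ak1 (-0.43, adjusted p = 0.00824) and Impact (-1.003, adjusted p = 0.0135), an inhibitor of the kinase GCN2. Atf4 itself was lower in immature than in proBpreB cells, by -1.13 in flox/flox mice (adjusted p = 6.01e-05) and by -1.248 in flox/WT mice (adjusted p = 1.84e-05).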
